A study of Mus musculus with 9 samples.

Results

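Histones are the proteins around which DNA is wrapped, and their genes were followed here in poly(A) RNA of naïve mESCs and primed mEpiSCs. Members were all genes whose symbol in GENCODE M21, the mouse gene annotation used for names, begins with Hist1h, Hist2h, Hist3h, Hist4h, H2af, H3f3 or H1f. These were 91 of the 54232 genes counted. The 70 genes with a *Hist* symbol were taken as replication-dependent and the other 21 as replacement histone genes. Of the replication-dependent genes, 6 encode the linker histone H1, 20 encode H2A, 19 H2B, 12 H3 and 13 H4, and 56 lie on chromosome 13. The groups follow symbols alone, so 3 replication-dependent and 6 replacement genes are pseudogenes or non-coding.

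The cells were mouse embryonic stem cells of strain C57 x CBA that carry a GFP reporter under the distal *Oct4* promoter. Naïve mESCs grew in serum/LIF medium, and primed mEpiSCs were converted from them in F/A medium, which contains bFGF and activin A. Each state was sequenced at passage 5 (P5) and at passage 15 (P15), with 2 libraries of each state at each passage, and 1 further library came from mouse embryonic fibroblasts (MEFs). All 4 groups of pluripotent cells stem from 1 cell line and grew on mitomycin C-treated MEF feeder cells, and nothing in the sample labels says that the 2 libraries of a group are separate cultures, so p-values measure the spread between these libraries only.

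Replication-dependent histone genes are transcribed in S phase, when new DNA has to be packed, and their mRNAs are known as the only ones of animal cells that end in a conserved stem-loop in place of a poly(A) tail. The stem-loop is bound by SLBP and the transcript is cut just after it by a complex that contains the U7 snRNP. Replacement histones are made through the whole cell cycle from ordinary polyadenylated mRNAs and exchange with the others outside replication. Library preparation with poly-T beads therefore retains the second kind, and of the first mainly transcripts that run past the stem-loop to a polyadenylation site.

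Libraries held 14378051 to 20985136 counts in pluripotent cells and 25646547 in MEFs. Levels are given as plain counts or in CPM, counts divided by library size to a common total, after TMM scaling, which corrects library sizes for shifts in composition. All 8 naïve marker genes tested were lower and all 8 primed marker genes higher in primed cells at both passages (adjusted p under 0.01), as the labels have it. Fibroblast transcripts were found in every library, and whether feeder cells were removed before RNA extraction is not stated. None of the 30 fibroblast markers was at 0 in any library. They summed to 10188 to 10191 CPM in naïve and 7132 to 7281 CPM in primed cells at P5, to 16439 to 17297 CPM in naïve and 16319 to 16957 CPM in primed cells at P15, and to 85159.5 CPM in MEFs. At the median marker this was 15.5% to 28.1% of the MEF level, but at the lowest marker only 0.564% to 6.81%. Of the 30, primed cells had 8 higher and 16 lower at P5, and 15 higher and 10 lower at P15. As an alternative, this median share of the MEF counts was subtracted from each library before testing, called below the feeder share taken off. That setting also scaled libraries by their totals without TMM factors. Its values therefore combine both changes, and the part of each was not tested. When libraries were scaled by their totals without TMM factors, log2 fold changes of the named genes shifted by a median of 0.20 at P5 and 0.10 at P15 between states, and by −0.024 in naïve and −0.13 in primed cells between passages, so that small changes depend on the scaling. In such bulk RNA fewer cells of a kind and less RNA per cell cannot be told apart.

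The stem-loop was looked for in the annotated transcripts as 16 bases that begin with GG, end with CC, hold T at positions 6 and 9 and A at position 11, counted from the first G, and have arms that pair at 5 or more of 6 positions. It was found in 47 of the 70 replication-dependent genes (67.1%) and in 2 of the 21 replacement genes, beside 4.6% of all genes with a transcript sequence. Within the last 100 annotated bases it stood in 23 replication-dependent genes (32.9%) and in no replacement gene, beside 0.403% of all genes. In the other 24 it lay further upstream, so that the annotation itself has a transcript that continues beyond it. Among these, the arms of *Hist1h2ac* and *Hist2h2bb* paired at only 5 of 6 positions, and their matches may not be stem-loops. A stem-loop beyond the annotated end could not be found, so that these shares also depend on annotated length. A polyadenylation signal (AATAAA or ATTAAA in the last 50 bases) was present in 17 replication-dependent genes (24.3%), in 11 replacement genes (52.4%), and in 80.7% of protein-coding genes. The sequences below, read from GENCODE M21 transcripts with GRCm38 coordinates of the stem-loop, are those of genes the results turn on, with the stem-loop in capitals and 5 bases on each side.
Hist1h1c (chr13:23739512-23739527, plus strand): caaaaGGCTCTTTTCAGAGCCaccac
H2afx (chr9:44335240-44335255, plus strand): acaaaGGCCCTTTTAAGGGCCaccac
Hist3h2ba (chr11:58949349-58949364, plus strand): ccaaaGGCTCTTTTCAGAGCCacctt
Hist1h4i (chr13:22040966-22040981, minus strand): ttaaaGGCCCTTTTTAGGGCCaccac
Hist1h3c (chr13:23745047-23745062, minus strand): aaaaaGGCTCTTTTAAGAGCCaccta
Hist1h3e (chr13:23561903-23561918, minus strand): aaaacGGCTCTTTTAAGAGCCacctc
Hist1h2ae (chr13:23570668-23570683, minus strand): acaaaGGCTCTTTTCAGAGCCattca
Hist1h2bj (chr13:22043638-22043653, plus strand): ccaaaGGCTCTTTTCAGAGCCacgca

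One letter sequence was shared by 25 genes, among them *Hist1h1c*, *Hist3h2ba*, *Hist1h2ae* and *Hist1h2bj*. *Hist1h3c* and *Hist1h3e* had a form found in 6 genes, which differs within the loop. The genes also differed in the stretch after the stem-loop. It ran for 840 bases in *Hist1h1c*, 822 in *H2afx*, 330 in *Hist1h4i* and 169 in *Hist3h2ba*, each ending with a polyadenylation signal. In *Hist1h3c*, *Hist1h2bj* and *Hist1h3e* the annotation ended 74, 23 and 369 bases after the stem-loop with no such signal, and in *Hist1h2ae* 151 bases after it with one. *Hist1h1c* and *Hist3h2ba*, which rose in primed cells at P5, had such a signal, as did *H2afx*, *Hist1h4i* and *Hist1h2ae*, which fell. *H2afx*, the gene of H2A.X, is the replacement gene known to give both kinds of mRNA. *Hist1h2bc*, an H2B gene, was annotated with more than 1 exon and without a stem-loop.

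Per kilobase of annotated exon, 7 of the 21 replacement genes stood above all 70 replication-dependent ones. Over the 8 libraries of pluripotent cells *H2afz* was at 397 CPM per kilobase, *H3f3b* at 234, *H2afx* at 177 and *H1f0* at 79.9, followed by *H3f3a* at 57.3, *H2afv* at 49.3 and *H2afj* at 38.5. The first replication-dependent gene in that order was *Hist1h1c* at 33.9, followed by *Hist1h2bc* at 30.3 and, after a gap, *Hist1h4i* at 7.73. Between *Hist1h2bc* and *Hist1h4i* lay *H2afy* at 19.8, *H1fx* at 19.7 and *H2afy2* at 18.6, and the other replacement genes were below *Hist1h4i*. Only *Hist1h1c* and *Hist1h2bc* of the 70 exceeded 200 counts in a library of pluripotent cells, while the highest count among the others was 147 (*Hist1h4i*). No read was counted in any of the 9 libraries for 7 replication-dependent and 5 replacement genes. All 7 of the former overlap an exon of another annotated gene, which can make reads ambiguous in counting. Of all 70, 23 overlap such an exon on the other strand and 7 on the same strand. *Hist2h2aa1*, *Hist2h2aa2*, *Hist2h2bb*, *Hist2h3b* and *Hist2h3c1*, all at no counts, also had 0% of their 50-base stretches unique among annotated transcripts. The effect of overlap or shared sequence on these counts was not tested.

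The summed counts of all members, to which no filter was applied, showed how the groups moved as wholes. Sums are given in CPM without TMM scaling. Replication-dependent genes summed to 124 and 119 CPM in naïve cells and 149 and 151 in primed cells at P5. At P15 the sums were 121 and 118 in naïve cells and 155 and 154 in primed cells, and MEFs had 183. Primed libraries were thus above naïve libraries at both passages, 1.24 and 1.29 times, or 1.05 and 1.21 times with TMM-scaled library sizes. *Hist1h1c* and *Hist1h2bc* together held 50.6% of these counts in either naïve library at P5 and 75.8% and 75.2% in the primed libraries. At P15 they held 58.3% and 57.7% in naïve and 74.1% and 75.7% in primed libraries.

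Without these leading genes, which were set apart after their values were seen, the order turned. The other 68 replication-dependent genes summed to 61.04 and 58.9 CPM in naïve cells and 36.1 and 37.6 in primed cells at P5, and to 50.6 and 49.97 in naïve and 40.1 and 37.3 in primed cells at P15. Primed cells had 0.614 and 0.7704 times the naïve sum, with no overlap between libraries of the states at either passage. MEFs were at 97.2. Replacement genes summed to 2335 and 2366 CPM in naïve and 2219.96 and 2218 in primed cells at P5, and to 2364 and 2326 in naïve and 2612 and 2601 in primed cells at P15. They were thus slightly lower in primed cells at P5 (0.944 times, or 0.802 times with TMM scaling) and higher at P15 (1.11 and 1.04 times). Sums carry no test. The plot of summed counts shows these libraries.

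**Figure D1:**
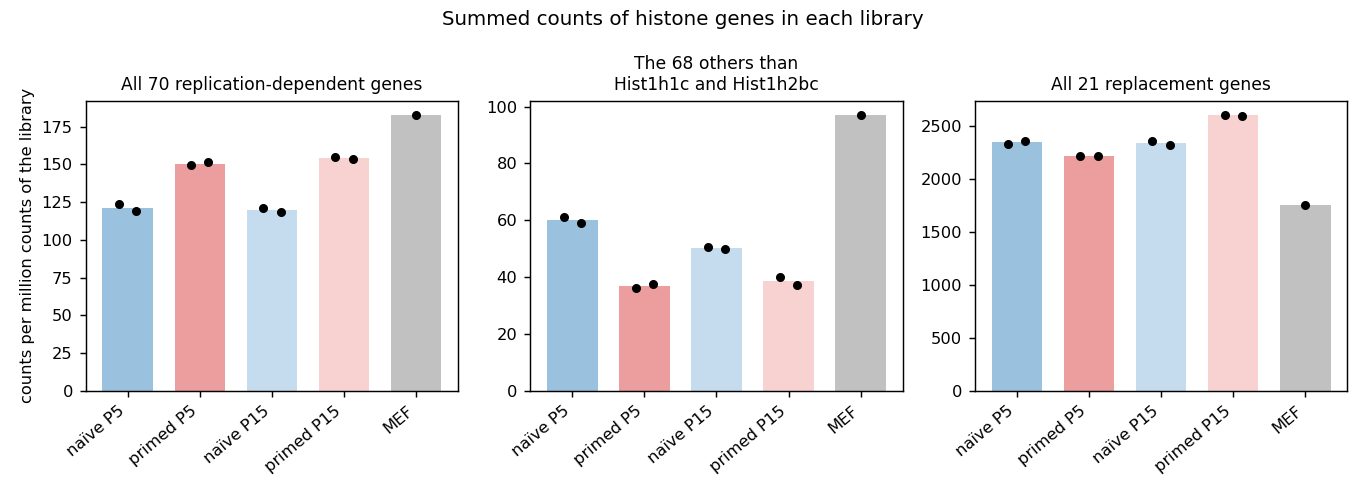
Counts of all 70 replication-dependent genes, of the 68 other than *Hist1h1c* and *Hist1h2bc*, and of all 21 replacement genes, in CPM without TMM scaling, in each library (points), with group means as bars. Without the leading genes the primed libraries lie at 36.1 to 40.1, below the naïve libraries at 49.97 to 61.04.

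Of the 21 replacement genes 12 were tested at P5 and 12 at P15, where a gene needed 10 counts or more in 2 or more of the 4 libraries. In primed cells at P5, 4 of them had risen and 5 had fallen, beside 31.2% and 31.1% of all 16482 genes tested (edgeR adjusted p under 0.01). At P15, 5 were higher and 3 lower, beside 28.2% and 28.4% of 15733. The shares at P5 are close to those of all genes. Changes of at least 2-fold were fewer, with *H1f0* higher and *H2afx* and *H2afj* lower at P5 (13.5% and 8.85% of all genes), and *H1f0* alone at P15 (12.2% higher and 11% lower of all genes). Leaving out naïve P5 replicate 1 or primed P5 replicate 1 reduced the higher genes at P5 to 2, and leaving out primed P5 replicate 1 or 2 reduced the lower ones to 3.

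*H1f0* (ENSMUSG00000096210, chromosome 15, 79028450 to 79030504), the linker histone known for accumulating in cells that slow their division or differentiate, rose the most among replacement genes. It was at 85.5 and 80.6 CPM in naïve cells and 246 and 256 CPM in primed cells at P5, and at 81.4 and 69.3 CPM in naïve and 249 and 247 CPM in primed cells at P15. Every primed library was above every naïve library. Log2 fold changes were 1.63 (standard error 0.0428, edgeR adjusted p = 7.80e-24) at P5 and 1.71 (standard error 0.0688, edgeR adjusted p = 2.15e-22) at P15. MEFs had 393 CPM, above all pluripotent libraries. With the feeder share taken off each library by the median marker the log2 fold change became 3.54 at P5 and 5.17 at P15. In naïve P15 replicate 2 that share, 19.5% of the MEF level, exceeded the gene's own 69.3 CPM. The P15 value is thus no measure of size. At the lowest marker the share was only 0.564% to 6.81%, so that both values depend on the marker chosen. *H1fx*, the other linker gene tested, was at 21.3 and 24.05 CPM in naïve and 27.8 and 26.4 CPM in primed cells at P5, giving a log2 fold change of 0.29 (standard error 0.0861, edgeR adjusted p = 0.00393). With library size alone the change was 0.49 and with the feeder share taken off 0.55. The call was lost without naïve P5 replicate 1 (log2 fold change 0.18, edgeR adjusted p = 0.103) and without either primed P5 replicate (0.0438 and 0.0104). It was also lost without the count filter (edgeR adjusted p = 0.0327), in the joint fit of the 8 libraries (0.0282) and with DESeq2's Wald test (adjusted p = 0.0528). At P15 the groups overlapped, with 22.4 and 19.5 CPM in naïve and 29.4 and 21.1 CPM in primed cells, and the difference passed without primed P15 replicate 2 (edgeR adjusted p = 5.20e-04).

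Among the H2A variants, *H2afx* (ENSMUSG00000049932, chromosome 9, 44334694 to 44336077) fell. H2A.X is the variant that is phosphorylated around DNA double-strand breaks. Its gene was at 349.97 and 358 CPM in naïve cells and 138 and 136 CPM in primed cells at P5, and at 307 and 323 CPM in naïve and 178 and 166 CPM in primed cells at P15. Primed libraries lay below naïve libraries at both passages, with log2 fold changes of −1.34 (standard error 0.0374, edgeR adjusted p = 3.62e-23) and −0.88 (standard error 0.0598, edgeR adjusted p = 1.34e-15). MEFs were lower still at 84.5 CPM. *H2afj* (ENSMUSG00000060032, chromosome 6, 136808244 to 136810074), which encodes H2A.J, followed the same course with 93.6 and 97.03 CPM in naïve and 37.3 and 36.7 CPM in primed cells at P5. At P15 it was at 89.3 and 101 CPM in naïve and 58.4 and 50.4 CPM in primed cells. Its log2 fold changes were −1.33 (standard error 0.0551, edgeR adjusted p = 5.40e-19) and −0.82 (standard error 0.0765, edgeR adjusted p = 9.57e-12), again with no overlap.

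*H2afz* (ENSMUSG00000037894, chromosome 3, 137864487 to 137866922), the gene of H2A.Z, which marks promoters and has a role in early development, was lower in primed cells at P5 and not at P15. Naïve cells had 732 and 739 CPM and primed cells 447 and 423 CPM at P5, giving a log2 fold change of −0.73 (standard error 0.0344, edgeR adjusted p = 1.58e-17). At P15 the levels were 869 and 834 CPM in naïve and 807 and 786 CPM in primed cells, which did not overlap, and the test was not passed (log2 fold change −0.11, standard error 0.0532, edgeR adjusted p = 0.0766). *H2afv*, the gene of the closely related second H2A.Z protein, was at 74.5 and 84.7 CPM in naïve and 94.5 and 84.1 CPM in primed cells at P5, so that the states overlapped. At P15 it was at 70.3 and 70.4 CPM in naïve and 84.2 and 81.2 CPM in primed cells. Its log2 fold changes of 0.20 (edgeR adjusted p = 0.00308) and 0.22 (edgeR adjusted p = 0.00501) passed the test, but not at P5 without naïve P5 replicate 1 or primed P5 replicate 1 (edgeR adjusted p = 0.213 and 0.112), and not at P15 without either naïve replicate or primed P15 replicate 1 (0.0462, 0.0507 and 0.0185). The P5 call was also lost without the count filter and in the joint fit (edgeR adjusted p = 0.0876 and 0.012), and both calls with DESeq2's Wald test (adjusted p = 0.0403 and 0.0349). At P5 its change was 0.083 without naïve replicate 1, 0.31 without primed replicate 2 and 0.40 with library size alone. With the feeder share taken off it was 0.43 at both passages.

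The macroH2A genes encode H2A variants with a large additional domain that are known from inactive chromatin. *H2afy2* was at 32.2 and 30.03 CPM in naïve and 42.8 and 46.1 CPM in primed cells at P5, and at 34.6 and 38.2 CPM in naïve and 51.6 and 47.6 CPM in primed cells at P15. Primed libraries were higher at both passages, with log2 fold changes of 0.54 (standard error 0.0702, edgeR adjusted p = 6.09e-08) and 0.43 (standard error 0.0853, edgeR adjusted p = 3.47e-05). MEFs had 90.4 CPM, and the values became 1.196 and 0.66 with the feeder share taken off. *H2afy* was at 144 and 149.9 CPM in naïve and 129 and 128 CPM in primed cells at P5, and 113 and 121 CPM in naïve and 146 and 145 CPM in primed cells at P15. Its log2 fold change at P5 was −0.16 (standard error 0.0416, edgeR adjusted p = 0.00104) under TMM scaling, yet 0.041 with library size alone and 0.038 with the feeder share taken off, neither past the test. Without primed P5 replicate 1 or 2 the P5 value missed the threshold too (edgeR adjusted p = 0.0259 and 0.0364). At P15 it was 0.31 (standard error 0.0633, edgeR adjusted p = 6.24e-05), or 0.52 with the feeder share taken off, and every primed library lay above every naïve one.

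*H3f3a* and *H3f3b* encode the same H3 variant, which is deposited outside replication by the HIRA and DAXX chaperones. *H3f3a* (ENSMUSG00000060743, chromosome 1, 180800832 to 180813943) was at 195 and 205 CPM in naïve and 188 and 173 CPM in primed cells at P5, giving a log2 fold change of −0.12 (standard error 0.04197, edgeR adjusted p = 0.0147) under TMM scaling and 0.086 with library size alone, neither past the test. Without naïve P5 replicate 1 it passed (−0.18, edgeR adjusted p = 4.04e-04). At P15 it was at 169 and 181 CPM in naïve and 256 and 241 CPM in primed cells, with a log2 fold change of 0.49 (standard error 0.0606, edgeR adjusted p = 5.91e-09), or 0.74 with the feeder share taken off. *H3f3b* (ENSMUSG00000016559, chromosome 11, 116021912 to 116027962) had the higher level per kilobase. It was at 704 and 675 CPM in naïve and 608 and 644 CPM in primed cells at P5, and at 742 and 686 CPM in naïve and 724 and 777 CPM in primed cells at P15. Its log2 fold change at P5, −0.11 (standard error 0.0348, edgeR adjusted p = 0.00725) under TMM scaling, turned to 0.095 with library size alone and 0.11 with the feeder share taken off, and missed the threshold without naïve P5 replicate 1 or either primed P5 replicate (−0.042 without primed P5 replicate 1). At P15 it was 0.062 (standard error 0.0559, edgeR adjusted p = 0.335), and passed only with library size alone among the alternatives run (0.17, edgeR adjusted p = 0.00784). The plot of replacement genes by library shows these levels. Reads can be shared with the *H3f3a* pseudogenes, of which *H3f3a-ps1*, at 33 to 69 counts in pluripotent libraries, was lower at P15 (−0.80, edgeR adjusted p = 0.00874).

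**Figure D2:**
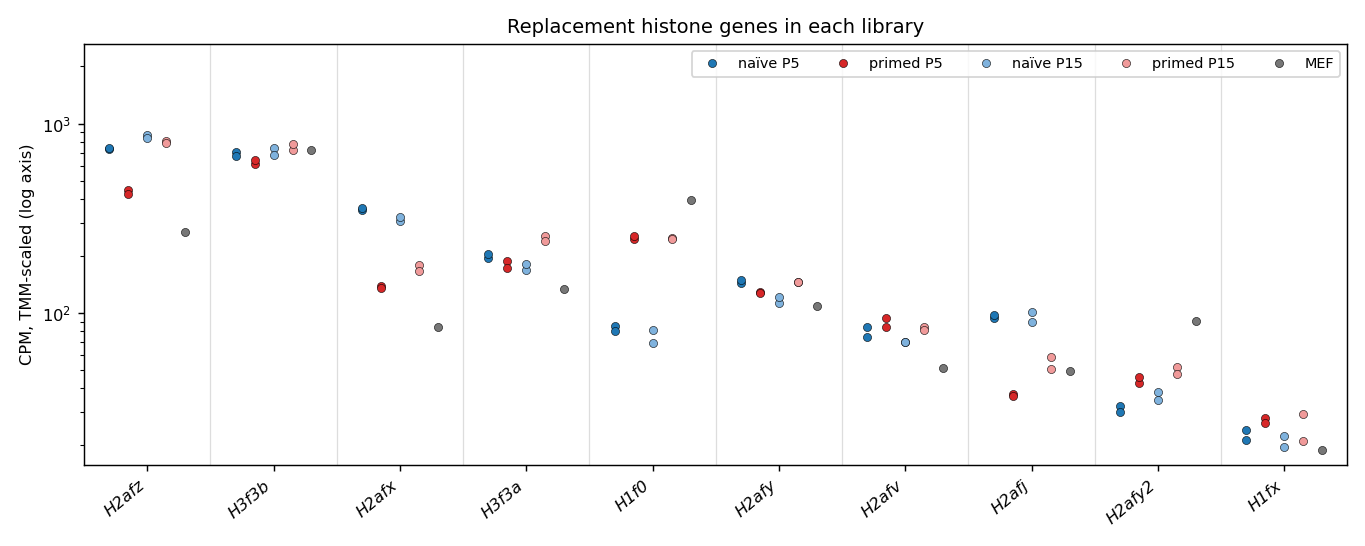
CPM on a log axis of the 10 protein-coding replacement genes tested at both passages, with 1 point for each of the 9 libraries, coloured by group. *H1f0* and *H2afy2* are highest in MEFs and higher in primed than naïve libraries, and *H2afx* and *H2afj* are lower in primed libraries at both passages.

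Among replication-dependent genes, *Hist1h1c* (ENSMUSG00000036181, chromosome 13, 23738808 to 23740367) rose in primed cells. It encodes a linker histone and had the most counts of the 70 in each of the 9 libraries. It was at 34.4 and 33.2 CPM in naïve and 71.2 and 72.2 CPM in primed cells at P5, and at 43.3 and 39.1 CPM in naïve and 65.99 and 63.7 CPM in primed cells at P15. Every primed library was above every naïve one, with log2 fold changes of 1.12 (standard error 0.0592, edgeR adjusted p = 2.34e-16) and 0.65 (standard error 0.0795, edgeR adjusted p = 6.81e-09). MEFs had 63.1 CPM, and with the feeder share taken off the changes were 1.64 and 0.96. *Hist1h2bc* (ENSMUSG00000018102, chromosome 13, 23684199 to 23692908), an H2B gene, was at 30.9 and 29.1 CPM in naïve and 28.8 and 28.4 CPM in primed cells at P5, giving a log2 fold change of −0.038 (standard error 0.0768, edgeR adjusted p = 0.67). At P15 primed libraries were higher, with 31.5 and 32.7 CPM in naïve and 47.6 and 51.01 CPM in primed cells, and the log2 fold change was 0.61 (standard error 0.0856, edgeR adjusted p = 1.10e-07). MEFs had 30.5 CPM.

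The other replication-dependent genes had few counts, and how many could be tested depended on the naïve libraries. Of the 70, 42 were tested at P5, 27 of which passed the count filter through the naïve libraries alone and 13 through both states. In primed cells 2 were higher and 17 lower, beside 31.2% and 31.1% of all genes. Of the 17 lower genes 15 had passed through the naïve libraries alone, so that they could hardly have been tested without being lower, and their number is no measure of the group. Among the 13 that passed through both, 2 were lower (*Hist1h4i* and *Hist1h4n*) and 2 higher. At P15, 32 were tested, 11 through the naïve libraries alone, and 2 (*Hist1h1c* and *Hist1h2bc*) were higher and 7 lower, beside 28.2% and 28.4% of all genes, 6 of the 7 having passed through the naïve libraries alone. Of the lower genes, 16 at P5 and all 7 at P15 were changed at least 2-fold. Of the higher ones, *Hist1h1c* and *Hist3h2ba* at P5 were changed at least 2-fold, and none at P15. DESeq2's Wald test gave 9 and 2 lower genes, and the counts with the feeder share taken off were 9 and 1. Leaving out naïve P5 replicate 1 or 2 left 4 and 3 at P5. At P15 leaving out naïve replicate 1 or 2 left 3 and 3, and leaving out primed replicate 1 or 2 left 4 and 2.

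*Hist3h2ba*, an H2B gene on chromosome 11 with an annotated end 169 bases after its stem-loop, was the second gene to rise at P5. It had 51 and 51 counts in naïve and 100 and 106 counts in primed libraries at P5, and 21 and 31 in naïve and 54 and 58 in primed libraries at P15. In CPM this was 2.54 and 2.52 and 4.97 and 5.88 at P5 and 1.55 and 1.98 and 3.099 and 3.29 at P15, without overlap. Log2 fold changes were 1.13 (standard error 0.212, edgeR adjusted p = 2.77e-05) at P5 and 0.83 (standard error 0.305, edgeR adjusted p = 0.0162) at P15, where it passed with library size alone, without the count filter and in a joint fit of the 8 libraries (edgeR adjusted p = 0.00782, 0.00993 and 0.00816). *Hist1h4i*, the best covered H4 gene, had 131 and 147 counts in naïve and 78 and 84 in primed libraries at P5, with a log2 fold change of −0.66 (standard error 0.177, edgeR adjusted p = 0.0015) that was lost without naïve P5 replicate 2 or primed P5 replicate 1 (edgeR adjusted p = 0.0126 and 0.0532). *Hist1h4n*, also H4, had 34 and 49 counts in naïve and 20 and 14 in primed libraries at P5 and a log2 fold change of −1.17 (standard error 0.357, edgeR adjusted p = 0.0046), lost without naïve P5 replicate 2 or either primed P5 replicate. The plot of fold changes sets these values side by side. Both H4 calls were also lost with DESeq2's Wald test, with library size alone and with the feeder share taken off. Among the other genes of higher level that did not pass at either passage, log2 fold changes at P5 and P15 were 0.36 and 0.56 for *Hist1h4h*, −0.85 and −0.035 for *Hist1h2bg*, 0.20 and 0.016 for *Hist3h2a*, and 1.002 and 1.03 for *Hist2h2be*.

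*Hist1h3c* and *Hist1h3e* encode H3, and both were far lower in primed cells at P5. There both passed the count filter through the naïve libraries alone, as did *Hist1h3g* below at both passages. They could hardly have been tested in those cases without being lower. *Hist1h3c* had 78 and 51 counts in naïve and 7 and 9 in primed libraries at P5, and 38 and 50 in naïve and 22 and 13 in primed libraries at P15. The log2 fold changes of *Hist1h3c* were −2.88 (standard error 0.385, edgeR adjusted p = 1.22e-07) and −1.59 (standard error 0.356, edgeR adjusted p = 1.85e-04), the latter lost without primed P15 replicate 2 (edgeR adjusted p = 0.0148) and with the feeder share taken off (0.0106). Of the 50-base stretches of *Hist1h3e* 26.6% were unique among annotated transcripts, and it shared the most with *Hist1h3f*. *Hist1h3e* had 30 and 29 counts against 2 and 2 at P5, and 12 and 20 against 14 and 6 at P15. Naïve libraries thus held 13.96 times (95% interval 5.17 to 52.9) the primed level at P5 and 1.92 times (95% interval 1.06 to 3.54) at P15, by exact intervals that cover counting error only. Its log2 fold change was −3.69 (standard error 0.598, edgeR adjusted p = 3.07e-06) at P5 and did not pass at P15 (log2 fold change −0.93, standard error 0.5099, edgeR adjusted p = 0.105). *Hist1h3g*, another H3 gene, had 25 and 30 counts in naïve and 5 and 13 in primed libraries at P5, and 15 and 10 in naïve and 1 and 4 in primed libraries at P15. Its log2 fold changes were −1.48 (edgeR adjusted p = 0.00631) and −2.54 (edgeR adjusted p = 0.00208). The P5 change was −0.86 without primed P5 replicate 1 and −2.37 without primed P5 replicate 2. The calls were lost at P5 without naïve P5 replicate 2 or primed P5 replicate 1 (edgeR adjusted p = 0.0175 and 0.143), and at P15 without primed P15 replicate 1 (0.048). DESeq2's Wald test called it at neither passage (adjusted p = 0.0618 and 0.0347). The P5 call was also lost with library size alone, without the count filter, in the joint fit and with the feeder share taken off.

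*Hist1h1a*, an H1 gene like *Hist1h1c*, went the other way. It had 43 and 34 counts in naïve and 7 and 6 in primed libraries at P5, and 20 and 29 in naïve and 4 and 1 in primed libraries at P15. At both passages it passed the count filter through the naïve libraries alone, so that it could hardly have been tested without being lower. Primed libraries were lower at both passages, with log2 fold changes of −2.43 (standard error 0.446, edgeR adjusted p = 1.92e-05) and −3.49 (standard error 0.609, edgeR adjusted p = 5.27e-06), and both calls held under each alternative run. At P15 the naïve level was 11.8 times (95% interval 4.71 to 37.8) the primed level by the same counting interval. *Hist1h1d*, a further H1 gene, had 49 and 41 against 23 and 22 counts at P5 and 28 and 22 against 10 and 17 at P15, and its log2 fold changes were −0.88 (edgeR adjusted p = 0.015) and −1.16 (edgeR adjusted p = 0.0188). Without naïve P15 replicate 2 the latter was −1.45 and passed (edgeR adjusted p = 0.00356).

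Because *Hist1h1c* and *Hist1h1a* differed in direction within 1 class, their promoters are shown, from RefSeq for GRCm38.p6 and spanning 250 bases before to 50 after the start. Capitals mark the CCAAT box, the TATAAA form of the TATA box and the AAACACA element of H1 genes, all searched on both strands.
Hist1h1c (chr13:23738557-23738856, plus strand): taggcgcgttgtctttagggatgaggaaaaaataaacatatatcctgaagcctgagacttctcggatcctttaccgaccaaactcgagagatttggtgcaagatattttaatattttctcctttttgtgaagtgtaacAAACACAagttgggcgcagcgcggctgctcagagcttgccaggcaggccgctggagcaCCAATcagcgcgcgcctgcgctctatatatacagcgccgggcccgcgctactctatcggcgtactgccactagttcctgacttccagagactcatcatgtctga
Hist1h1a (chr13:23763418-23763717, plus strand): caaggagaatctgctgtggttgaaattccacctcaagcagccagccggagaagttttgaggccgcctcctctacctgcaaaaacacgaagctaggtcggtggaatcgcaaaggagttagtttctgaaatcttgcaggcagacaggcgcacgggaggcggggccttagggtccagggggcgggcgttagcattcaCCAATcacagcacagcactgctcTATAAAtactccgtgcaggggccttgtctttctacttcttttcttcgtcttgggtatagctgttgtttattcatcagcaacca
Both hold CCAAT, *Hist1h1c* holds AAACACA, and *Hist1h1a* holds TATAAA. *Hist1h1b*, *Hist1h1d* and *Hist1h1e* hold all 3 motifs. Their log2 fold changes at P5 were −1.82 (edgeR adjusted p = 0.00106), −0.88 (edgeR adjusted p = 0.015) and −1.300 (edgeR adjusted p = 0.0528). The exact letters TATAAA were thus in *Hist1h1a* and these genes, whose changes were all negative, and not in *Hist1h1c*, which rose. The *Hist1h1c* promoter instead reads tatatata shortly before the start, a form that the search did not cover. Presence of a TATA box of any form was therefore not compared. *Hist1h1d* and *Hist1h1e* were not called, and *Hist1h1a* and *Hist1h1b* passed the count filter through the naïve libraries alone. TATAAA was also absent from *Hist1h1t*, which had too few counts to test. The other motifs do not follow direction within the class, as *Hist1h1c* shares them with these genes. Whether any motif has a part in the direction was not tested. Promoters were matched for 73 members. AAACACA was in 5 of 6 replication-dependent H1 promoters (83.3%), beside 7.14% of all RefSeq promoters of this length. CCAAT was in 53 of 62 replication-dependent (85.5%) and 7 of 11 replacement promoters (63.6%), beside 37.9% of all. TATAAA was found in 56.5% of the replication-dependent and in 0 of 11 replacement promoters, beside 14.2% of all. These are matches of letters and not measured binding.

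The remaining genes called lower passed the count filter through the naïve libraries alone at the passage in question. Most were H2A and H2B genes, which make up 20 and 19 of the 70, so that nothing is read from their number. *Hist1h2ae* had 54 and 48 counts in naïve and 9 and 7 in primed libraries at P5, and 21 and 32 in naïve and 12 and 7 in primed libraries at P15. Log2 fold changes were −2.54 (standard error 0.3901, edgeR adjusted p = 1.29e-06) and −1.73 (standard error 0.456, edgeR adjusted p = 0.00117), the latter lost without primed P15 replicate 2 (edgeR adjusted p = 0.0331). *Hist1h2bj* had 36 and 51 counts against 4 and 8 at P5 and 17 and 20 against 11 and 15 at P15, with log2 fold changes of −2.72 (standard error 0.457, edgeR adjusted p = 5.41e-06) and −0.78 (standard error 0.453, edgeR adjusted p = 0.131). *Hist1h2bk* had 56 and 39 counts against 14 and 9 at P5 and 16 and 17 against 9 and 11 at P15, and log2 fold changes of −1.93 (edgeR adjusted p = 4.95e-05) and −0.99 (edgeR adjusted p = 0.0733). *Hist1h2ab* was tested at P15 alone, with 13 and 11 counts against 3 and 1 and a log2 fold change of −2.78 (standard error 0.735, edgeR adjusted p = 0.00121), lost without primed P15 replicate 2 (edgeR adjusted p = 0.0263). *Hist1h2ac* had 15 and 10 counts in naïve libraries at P5 and none in either primed library, which allows up to 3 counts per library and makes it at least 3.93-fold lower (edgeR adjusted p = 8.69e-05). At P15 its counts were 8 and 10 in naïve and 14 and 9 in primed libraries, with overlapping CPM. DESeq2's Wald test and the fit with the feeder share taken off did not call *Hist1h2ae* or *Hist1h2ab* at P15. Of the 50-base stretches of *Hist1h2bk* 25.8% were unique among annotated transcripts. The other 7 lower genes at P5 (*Hist1h1b*, *Hist1h2ad*, *Hist1h2ag*, *Hist1h2ap*, *Hist1h2bl*, *Hist1h3b* and *Hist1h3h*) had 10 to 38 counts in naïve and 0 to 8 in primed libraries, and the other 2 at P15 (*Hist1h2ag* and *Hist1h4d*) had 14 to 26 and 4 to 8. The plot of counts by library shows the named genes.

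**Figure D3:**
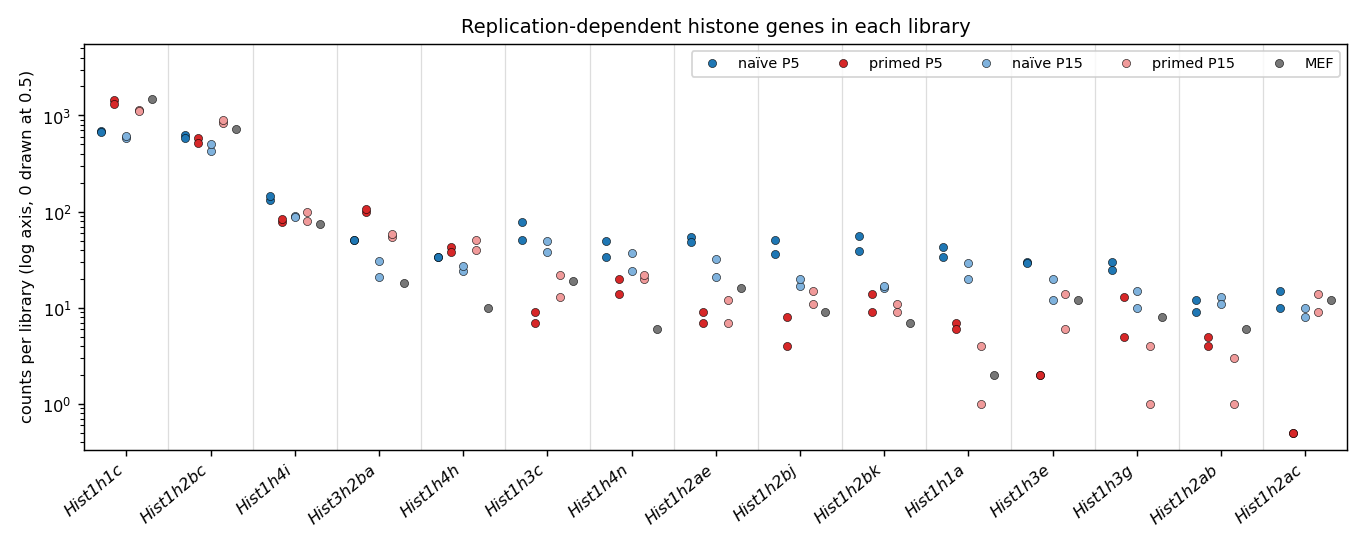
Counts on a log axis of 15 replication-dependent genes in the 9 libraries, coloured by group, with a count of 0 drawn at 0.5. *Hist1h1c* and *Hist1h2bc* are at 428 counts or more in every library, the others stay at 147 or below, and *Hist1h2ac* is at 0 in both primed P5 libraries.

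**Figure D4:**
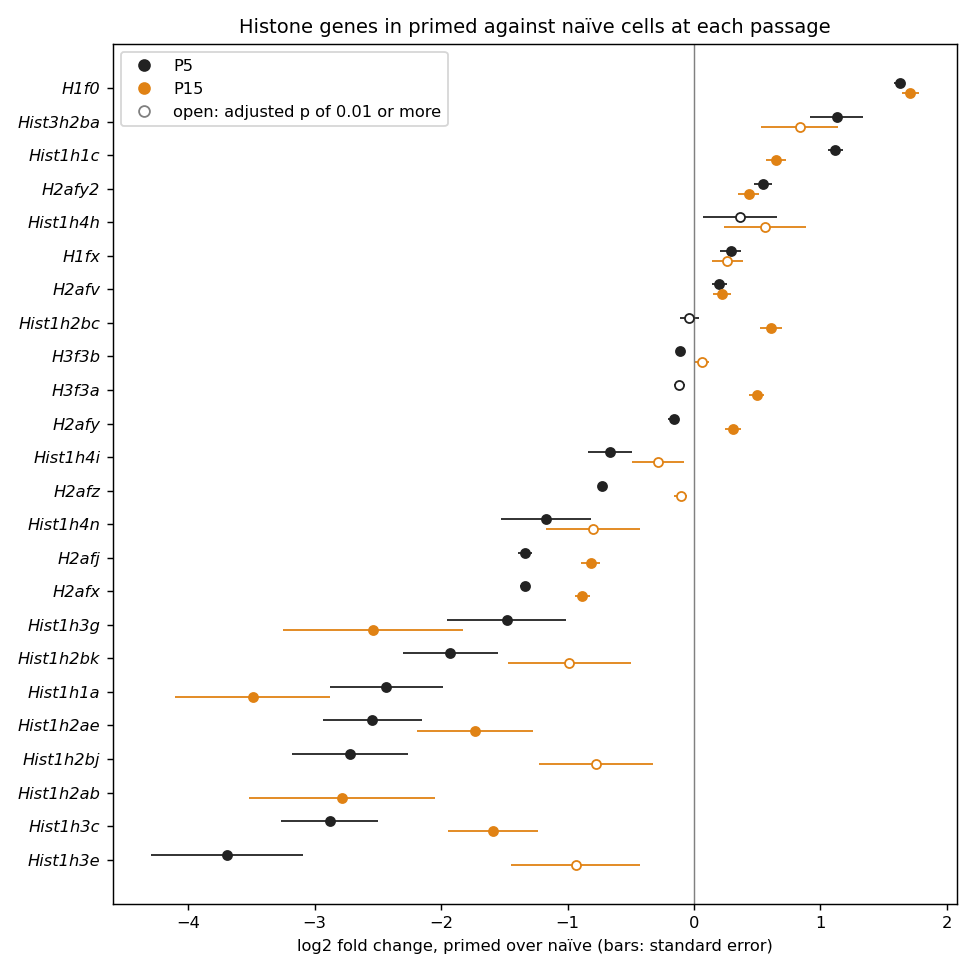
Log2 fold change of primed over naïve cells with its standard error for 24 named histone genes at P5 and P15, open where the edgeR adjusted p was 0.01 or more. *H1f0* lies at 1.63 and 1.71 and *Hist1h3e* at −3.69 at P5, and standard errors are wider for replication-dependent genes other than *Hist1h1c* and *Hist1h2bc*. *Hist1h2ab* was tested at P15 alone.

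Near-identical coding sequences can pass reads between genes of a class, so classes were also summed over their members, tested or not, and H1 and H2B with and without their leading genes. Of the 70 genes, 36 had under 50% of their 50-base stretches unique among annotated transcripts, and limiting the count to the other 34 gave 6 lower genes at P5 in place of 17 and 4 at P15 in place of 7. The H3 class held 13.1 and 12.01 CPM in naïve and 4.11 and 3.96 in primed cells at P5, and 9.67 and 10.6 in naïve and 8.28 and 5.297 in primed cells at P15. Naïve libraries lay above primed libraries at both passages, on average 3.11 and 1.495 times. H2A genes held 11.2 and 10.95 CPM in naïve and 4.67 and 4.08 in primed cells at P5, and 9.74 and 8.81 in naïve and 5.73 and 5.07 in primed cells at P15, likewise 2.53 and 1.72 times higher in naïve cells. All 20 H2A genes overlap an exon on the other strand, and the library kit does not mark strand.

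The whole H1 class, most of whose counts were of *Hist1h1c*, was higher in every primed library, with 39.5 and 37.5 CPM in naïve and 82.98 and 84.3 in primed cells at P5, and 45.97 and 41.7 in naïve and 68.2 and 66.2 in primed cells at P15. Primed cells were at 2.17 and 1.53 times the naïve sum, or 1.85 and 1.44 times with TMM scaling. Without *Hist1h1c*, set apart after its values were seen, the order turned. For H1 without *Hist1h1c* the sums were 6.48 and 5.405 CPM in naïve and 2.36 and 2.58 in primed cells at P5, and 5.08 and 4.498 in naïve and 1.62 and 1.61 in primed cells at P15, so that naïve cells were 2.41 and 2.96 times above primed cells. H4 genes differed less, with 15.6 and 15.9 CPM in naïve and 11.98 and 12.2 in primed cells at P5, and 13.5 and 14.3 in naïve and 12.7 and 11.5 in primed cells at P15. The whole H2B class held 44.3 and 42.8 CPM in naïve and 45.5 and 46.9 in primed cells at P5, and 42.4 and 42.7 in naïve and 59.8 and 65.5 in primed cells at P15. Its primed over naïve ratio was 1.06 at P5, or 0.902 with TMM scaling, which turns the order, and 1.47 or 1.38 at P15. H2B genes without *Hist1h2bc* held 14.7 and 14.6 CPM in naïve and 12.9 and 14.8 in primed cells at P5, and 12.6 and 11.7 in naïve and 11.8 and 13.8 in primed cells at P15. There the states overlapped at both passages, with primed over naïve ratios of 0.945 and 1.05, or 0.803 without overlap at P5 and 0.987 with overlap at P15 after TMM scaling. The plot of class sums shows the libraries. The sums of H2A, H3, H4 and H1 without *Hist1h1c* were lower in every primed library at both passages under either scaling.

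**Figure D5:**
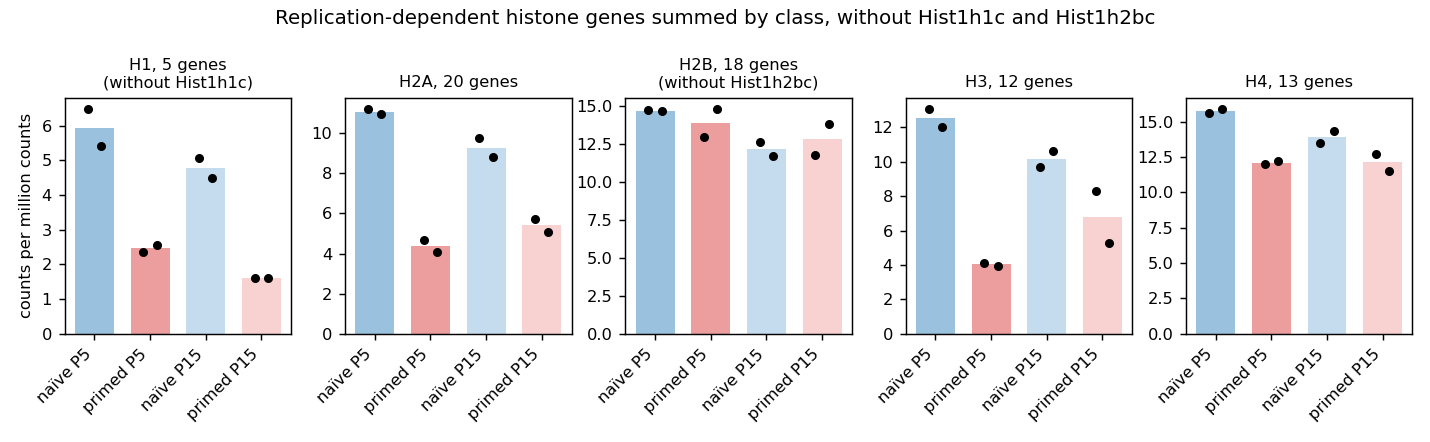
CPM without TMM scaling of replication-dependent histone genes summed by class, H1 without *Hist1h1c* and H2B without *Hist1h2bc*, in each pluripotent library (points), with group means as bars. Primed libraries lie below naïve libraries at both passages in H1 without *Hist1h1c*, H2A, H3 and H4, and the states overlap in H2B without *Hist1h2bc*.

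The position of the stem-loop was set beside these calls as a description. Of the 23 genes whose annotation ends within 100 bases of it, 14 were tested at P5, of which 9 were lower in primed cells and 0 higher. Of the 24 with a longer stretch after it, 16 were tested, with 4 lower and 2 higher, the latter being *Hist1h1c* and *Hist3h2ba*. Of the 23 without a stem-loop in the annotation, 12 were tested, with 4 lower and 0 higher. Over all genes 31.1% were lower and 31.2% higher at P5, and 28.4% and 28.2% at P15. At P15 the lower genes were 4 of 10, 2 of 15 and 1 of 7 tested in the same order, and the higher genes 0, 1 and 1. Since 15 of the 17 lower genes at P5 and 6 of the 7 at P15 passed the count filter through the naïve libraries alone, nothing is read from these counts. Small RNAs without a poly(A) tail were nearly absent, with 16 to 44 counts over 14 genes in pluripotent libraries and 68 in MEFs.

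Passage was compared within each state, in fits that share their libraries with the comparisons of states. In naïve cells none of the 43 replication-dependent genes tested was called by edgeR, beside 4.21% of all genes higher and 5.01% lower at P15. DESeq2 also called 0, and 6 had an unadjusted p under 0.05. The smallest adjusted p belonged to *Hist1h1c* (0.28, edgeR adjusted p = 0.0227), with *Hist1h2bk* (−1.05) and *Hist1h3f* (−1.77) next. Of 12 replacement genes *H2afz* was higher at P15 (0.21, edgeR adjusted p = 0.00259) and *H2afy* lower (−0.33, edgeR adjusted p = 6.31e-04). The *H2afz* call was lost without naïve P5 replicate 1 or 2 (edgeR adjusted p = 0.0279 and 0.0194), which left 1 replacement gene, and 4 were called without naïve P15 replicate 2.

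In primed cells more replacement genes moved, all upward at P15. Of 13 tested, 5 were higher and 0 lower, beside 24.3% and 22.8% of all genes. *H2afz* went from 447 and 423 CPM at P5 to 807 and 786 CPM at P15, giving a log2 fold change of 0.84 (standard error 0.0458, edgeR adjusted p = 9.96e-15). *H2afj* (0.52), *H3f3a* (0.43), *H2afx* (0.30) and *H3f3b* (0.23) were the others, as log2 fold changes. *H3f3b* did not pass without primed P5 replicate 1 (edgeR adjusted p = 0.0392), and with library size alone *H2afx* was at 0.16 and *H3f3b* at 0.099, neither past the test. Of 22 replication-dependent genes 3 were higher, namely *Hist1h2bc* (0.75, edgeR adjusted p = 3.02e-09), *Hist2h3c2* (1.66, edgeR adjusted p = 0.00449) and *Hist1h2be* (1.18, edgeR adjusted p = 0.00846, from 14 and 15 to 30 and 32 counts), and *Hist3h2ba* was lower (−0.79, edgeR adjusted p = 0.00177). *Hist2h3c2* had 7 and 10 counts at P5 and 36 and 15 at P15, and without primed P15 replicate 1 its log2 fold change was 0.89 (edgeR adjusted p = 0.192). *Hist3h2ba* did not pass without primed P5 replicate 2 or primed P15 replicate 1. The 4 calls became 2 without primed P5 replicate 1, primed P5 replicate 2 or primed P15 replicate 1. The 30 fibroblast markers rose over the same passages, 27 of them past the test, with a median log2 fold change of 0.99, and the fits with the feeder share taken off called 5 replacement and 2 replication-dependent genes.

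The interaction of state and passage tested whether the primed minus naïve change itself differed between P15 and P5. Of 13 replacement genes 5 had a higher value at P15 and 0 a lower one, beside 13.3% and 10.8% of all 16926 genes. These were *H2afz* (0.64, edgeR adjusted p = 1.96e-10), *H3f3a* (0.63, edgeR adjusted p = 3.94e-08), *H2afj* (0.53, edgeR adjusted p = 7.92e-05), *H2afy* (0.49, edgeR adjusted p = 3.47e-06) and *H2afx* (0.47, edgeR adjusted p = 1.62e-06). Changes that were negative at P5 were smaller at P15 in *H2afz*, *H2afj* and *H2afx*, and those of *H3f3a* and *H2afy* went from below to above 0 under TMM scaling, but started just above 0 at P5 (0.086 and 0.041) with library size alone. *H1f0* showed no such difference (log2 fold change 0.10, standard error 0.0819, edgeR adjusted p = 0.364). Of 44 replication-dependent genes 3 were called, *Hist1h2bc* (0.66, edgeR adjusted p = 2.01e-05) and *Hist1h2ac* upward and *Hist1h1c* downward (−0.45, edgeR adjusted p = 4.37e-04, or −0.68 with the feeder share taken off). For *Hist1h2ac*, which was at 0 in primed P5 libraries, the fitted size depends on how a count of 0 is treated. The call was lost without either primed P5 replicate. With the feeder share taken off *H2afj* was not called (edgeR adjusted p = 0.0153). Without primed P15 replicate 2 the number of replication-dependent genes called was 5.

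The MEF library, which has no replicate, differed from pluripotent cells most in 2 near-identical genes. *Hist1h2ao* and *Hist1h2ap*, H2A genes on chromosome 13 that share nearly all of their sequence (6.497% and 6.93% of 50-base stretches unique), had 828 and 745 counts there, or 35.2 and 31.7 CPM. In pluripotent libraries they had at most 18 and 14 counts. Together they made up 33.5% of the replication-dependent counts of MEFs and 0.151% to 1.23% of those of pluripotent libraries. Of the 63 replication-dependent genes with a count 11 were higher in MEFs than in every pluripotent library and 12 lower, and of 16 replacement genes *H1f0* and *H2afy2* were higher and 7 lower. Of all 31516 genes with a count, 23.8% were higher and 18.1% lower by the same measure.

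Genes that act on histone mRNA and histone proteins were counted from lists. Of 27 genes for histone gene transcription and 3′ end processing, 25 were matched by name and tested, with 0 higher and 17 lower in primed cells at P5, beside 31.2% and 31.1% of all genes. Their median log2 fold change was −0.26, beside 0.0078 over all genes. At P15, 2 were higher and 8 lower, the latter close to the 28.4% of all genes (median −0.069, beside −0.0039). *Slbp*, the stem-loop binding protein, was at 111 and 115 CPM in naïve and 65.6 and 65.9 CPM in primed cells at P5, and at 116 and 121 CPM in naïve and 92.5 and 100.3 CPM in primed cells at P15. Its log2 fold changes were −0.75 (edgeR adjusted p = 1.93e-14) and −0.31 (edgeR adjusted p = 9.60e-05). *Srrt*, whose protein links cap binding to RNA processing, was at −0.58 and −0.32, and *Snrpg*, an Sm core protein, at −0.65 and −0.23, all past the test. *Npat*, the S phase activator of histone genes, was not called at P5 (−0.032, edgeR adjusted p = 0.659) and was lower at P15 (−0.26, edgeR adjusted p = 0.00686).

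Of 30 histone chaperone and exchange genes, 2 were higher and 24 lower at P5 (median −0.42), and 2 higher and 15 lower at P15 (median −0.26). Of all genes 31.2% were higher and 31.1% lower at P5, and 28.2% and 28.4% at P15. *Nasp*, a chaperone that keeps a reserve of H3 and H4, had log2 fold changes of −0.71 and −0.65, *Npm1* −0.86 and −0.52, and *Rbbp4*, a subunit of the CAF-1 assembly factor, −0.57 and −0.33, each past the test. The 2 higher at P5 were *Hjurp*, the chaperone of the centromeric H3, and *Ubn2*, at 0.60 and 0.21. *Hira*, which deposits the replacement H3, was at −0.50 and −0.37, also past the test. *Npat*, *Hjurp*, *Ubn2* and *Hira* were named after their values were seen.

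Most cell cycle genes of the lists were lower in primed cells, as were the summed 68 replication-dependent genes other than *Hist1h1c* and *Hist1h2bc*, while the sum of all 70 was higher. Of 24 S phase genes, primed cells had 23 lower and 0 higher at P5 (median −0.80), and 17 lower and 0 higher at P15 (median −0.50), beside 31.1% and 28.4% of all genes lower at the 2 passages. *Ccne1*, a cyclin of S phase entry, had log2 fold changes of −1.94 and −1.75, *Rrm2*, a subunit of ribonucleotide reductase, −1.07 and −0.74, and *Mcm5*, of the replicative helicase, −1.05 and −0.56, all past the test. The list summed to 5061 to 5064 CPM in naïve and 2771 to 2816 CPM in primed cells at P5, and to 5095 to 5100.4 CPM in naïve and 3493 to 3578 CPM in primed cells at P15. In primed cells 18 of the 24 rose from P5 to P15 and 1 fell (median 0.32), beside 24.3% and 22.8% of all genes. Of 22 G2/M genes 20 were lower and 1 higher at P5 (median −0.45), and 17 and 1 at P15 (median −0.33), led by *Ccnb1*, *Cdc20* and *Ube2c*. Whether these differences have a part in those of the histone genes was not tested. Of the 15 germ layer markers 13 were tested at P5 and 12 at P15, with 10 and 8 higher and 1 and 2 lower in primed cells, beside 31.2% and 28.2% of all genes higher.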

How the data were processed

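RNA-seq of 9 libraries was analysed. There were 2 of each cell state at each passage, and 1 of MEFs. The authors isolated poly(A) RNA with poly-T beads, prepared libraries with a kit that does not mark strand, trimmed reads with Cutadapt, aligned them to mm10 with HISAT2 allowing several placements of a read and deposited raw counts of reads per Ensembl gene from featureCounts. Versions, annotation release, strand setting and the treatment of multiply placed reads are not given in the sources used here, and these can shift counts between near-identical histone genes. The processing notes of the submitters also name DESeq2.

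Gene names came from GENCODE M21, which named 54165 of 54232 IDs. The members and gene lists were chosen with earlier results of these data known. The 92 spike-in rows, all at 0, were left out. Each comparison was fitted over all genes on its own libraries with edgeR 4.0.16 in R 4.3.3 (limma 3.58.1), by the quasi-likelihood test with TMM scaling, on genes with at least 10 counts in at least 2 libraries, and called at a Benjamini-Hochberg adjusted p under 0.01. The interaction used the 8 pluripotent libraries. P-values were adjusted over all genes of a comparison, and 5 comparisons were made. Fold changes are log2 of primed over naïve or P15 over P5. A count of 0 allows up to 3 counts, or 0.148 to 0.221 CPM. This floor and the 95% exact intervals cover counting error only, as reads carried no molecular identifiers. Replicates differed by more than sampling noise, with a chi-square of 2.10 to 3.28 per gene. Tested on simulated data for P5, the fit recovered 78.6% of 2-fold and 95% of 4-fold changes with 0 false calls over 16328 genes. These rates were not split by level, so that they do not describe genes of few counts, such as most replication-dependent genes. Named genes were the tested protein-coding replacement genes and, of the replication-dependent genes, the 12 of highest level, the 5 of smallest adjusted p in each direction in each comparison of states and the 3 in each other comparison, plus the 3 of each other list. *H3f3a-ps1*, *Hist1h2ao*, *Hist1h2ap*, *Hist1h2be* and the further lower genes listed by count fell outside this rule and were picked with their values in view. The alternatives were DESeq2 1.42.0 size factors and Wald test, library size alone, no count filter, a replicate block, a joint fit of 8 libraries, the feeder share taken off, members with 50% or more unique stretches, and each library left out. The fit with the feeder share taken off used library size without TMM factors. The block with crossed pairs and the sum without *Hist1h1c* and *Hist1h2bc* were added after seeing the data. Promoters came from RefSeq for 73 members.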

Additional observations from a re-analysis of the deposited data

Results flagged for a closer look

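The primed minus naïve change differed between P5 and P15, by the interaction term of edgeR, in 8 named histone genes. On the log2 scale the P15 change exceeded the P5 change by 0.53 in *H2afj*, 0.47 in *H2afx*, 0.49 in *H2afy*, 0.64 in *H2afz*, 0.63 in *H3f3a*, 0.66 in *Hist1h2bc* and 6.57 in *Hist1h2ac*, and differed by −0.45 in *Hist1h1c*. The *Hist1h2ac* value rests on 0 counts in primed P5 libraries and is no bound. In the MEF library, which enters no fit, *Hist1h2ao* at 35.2 CPM and *Hist1h2ap* at 31.7 CPM stood above every pluripotent library.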

How the results depend on the processing

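Few counts, 2 libraries per group and reads shared between near-identical genes limit the replication-dependent results, as do the scaling, the test used and the feeder share. Of 1691 values of 146 results for named genes under the alternatives, 1576 kept their side of the threshold, 75 lost and 36 gained the call, and 4 called values turned and lost it. Of the 1576, 53 values of 22 results changed sign without being past the test before or after. The 4 were at P5, *H2afy* at 0.041 and *H3f3b* at 0.095 with library size alone, and 0.038 and 0.11 with the feeder share taken off. The cause of changes below was not tested where the setting itself does not remove genes or libraries.

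Of 17 lower replication-dependent genes at P5, DESeq2's Wald test called 9, the feeder setting 9 and the mostly unique members 6, and leaving out a library gave 3 to 13. Of 7 at P15 these were 2, 1 and 4, with 2 to 4. Of 4 higher replacement genes at P5, no filter, DESeq2's Wald test and the joint fit gave 2 each, and leaving out a library 2 to 4. Of 5 lower, library size alone and the feeder setting gave 3 each, and leaving out a library 3 to 5. Over passages, the joint fit called 1 replication-dependent gene in naïve cells in place of 0. In naïve cells the 2 replacement genes called became 4 with library size alone or the joint fit and 1 with no filter, and 1 to 4 without a library. In primed cells the 4 replication-dependent genes became 1 with DESeq2's Wald test, 2 with the feeder setting and 2 to 3 without a library. For the interaction the 3 such genes became 5 with no filter and 2 to 5 without a library.

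The primed over naïve ratio of summed replication-dependent counts was 1.05 and 1.21 at P5 and P15 with TMM scaling and 1.46 and 1.42 over mostly unique members. Without *Hist1h1c* and *Hist1h2bc* it was 0.522 and 0.722, and 0.777 and 0.868. For replacement genes TMM scaling gave 0.802 and 1.04.

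Differences between same-numbered replicates correlated at r = −0.12 to 0.091 between groups. Such differences also hold counting noise, so that these values cannot decide whether replicate numbers pair the libraries. With the replicate block the 7 lower genes at P15 became 4, and in naïve cells over passages 1 replication-dependent and 4 replacement genes were called. Crossing the pairs at P15, added after seeing the data, gave 7 lower and 2 higher replication-dependent genes.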
